A study of Homo sapiens with 10 samples.

Results

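The 10 genes described here are FOS, FOSB, FOSL1 and FOSL2 of the FOS family, JUN, JUNB and JUND of the JUN family, and the immediate early genes EGR1, IER2 and IER3. They were taken by gene symbol from a table of 19215 symbols, and all 10 passed the filter on low counts that left 13349 genes for testing. RNA was sequenced from 2 human liver cancer lines, each transduced with a vector for the miR-17 TuD, a decoy for microRNAs of that family, or for the control decoy NC TuD. A decoy of this type is an RNA that binds a microRNA and keeps it from its targets. HepG2, which keeps many hepatocyte transcripts, had 3 libraries with each decoy, and SK-Hep1, which does not, had 2 libraries with each. The comparison within a line asks how these transcripts differed when the miR-17 family was inhibited.

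All 4 groups carried a lentiviral vector and a drug selection in addition to their decoy. Per the labels, cells met the virus for 48 hours (multiplicity of infection 5, 10 µg/mL polybrene). Puromycin at 1 µg/mL followed, and after 2 weeks the surviving colonies of each arm were combined. Each arm was therefore 1 stable line, and the decoy and the history of that line cannot be told apart. Cells were grown with 10% fetal bovine serum, and no serum withdrawal or pulse of a growth factor is described. The labels do not say that replicates came from separate cultures, so the p-values measure only the spread between these libraries.

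AP-1 is a transcription factor made of a FOS protein paired with a JUN protein, or of JUN proteins paired with each other, and it binds the sequence TGACTCA. Immediate early genes are switched on within minutes of a growth factor, stress or serum signal, without new protein synthesis, and most of their transcripts are short-lived. FOS, FOSB, JUN, JUNB, EGR1 and IER2 show this transient behaviour, whereas FOSL1, FOSL2 and JUND are known to be sustained longer or expressed in resting cells. In liver cells AP-1 is known for roles in regeneration, stress responses and tumour growth.

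The microRNAs that the decoy was made against are printed first because their seed, bases 2 to 8, defines the sites searched for in the 10 transcripts. The 6 mature sequences of the family, from RefSeq (GRCh38.p14), are given 5′ to 3′ with the seed in capitals.
hsa-miR-17-5p: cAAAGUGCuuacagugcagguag
hsa-miR-20a-5p: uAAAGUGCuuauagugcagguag
hsa-miR-20b-5p: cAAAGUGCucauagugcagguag
hsa-miR-93-5p: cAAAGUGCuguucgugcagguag
hsa-miR-106a-5p: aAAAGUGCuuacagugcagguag
hsa-miR-106b-5p: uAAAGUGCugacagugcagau
All 6 hold the same seed and differ in the bases after it.

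The share of the 10 genes with a match to this seed in the 3′ UTR was near that of all genes tested. The search on the transcript strand covered GCACTTTA (8mer), GCACTTT (7mer-m8) and CACTTTA (7mer-A1), which share letters, in 1 principal GENCODE transcript per gene. Only FOSL1 and FOSL2 held any of the 3 in the 3′ UTR, 2 of 10, against 28.2% of the 12732 tested genes with an annotated 3′ UTR. FOSL2 alone held an 8mer or 7mer-m8 there, against 22.3% of those genes. IER3 had a 7mer-m8 in its coding sequence and FOSB had one in its 5′ UTR. The 4 windows are shown because they are the only places in these transcripts where the family's seed could pair by these rules. Coordinates are GRCh38, and the capitals mark the match.
FOSL1, 3′ UTR, chr11:65892474-65892502, minus strand: acagaaggtgcCACTTTAcccacctagaa
FOSL2, 3′ UTR, chr2:28416935-28416963, plus strand: tacctttctggGCACTTTttttttttttt
IER3, coding sequence, chr6:30743953-30743981, minus strand: tctggacctcaGCACTTTcctccagcaac
FOSB, 5′ UTR, chr19:45468318-45468346, plus strand: ctacggagcctGCACTTTcaagaggtaca
JUN, JUNB, JUND, EGR1, FOS and IER2 held none of the 3 sites in these transcripts. A match is a description of the letters, and binding was not measured.

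The libraries held between 12884225 and 15076431 counts assigned to genes, so 1 count was worth 0.0657 to 0.0795 CPM, the usual unit of counts relative to library size. CPM here are scaled by the trimmed mean of M values (TMM), and they are divided by exonic length wherever the levels of different genes are set side by side. This length joins the exons of all annotated transcripts of a gene, so it can exceed that of the transcript expressed. For IER3 its 1356 bases span the whole locus. Orders and shares per kilobase depend on this choice. HepG2 NC TuD replicate 2 and HepG2 miR-17 TuD replicate 3 stood apart from the other libraries of their arms. Within the arms of HepG2, pairs with either of them had a chi-square per degree of freedom of 2.28 to 3.70, against 1.74 and 2.14 for the other pairs. Each was also the lowest of its arm in JUND, IER2 and IER3, and HepG2 results are given without both where a call changed. The hepatocyte markers summed to 55300 to 57490 CPM in HepG2 NC TuD and to 48190 to 50640 CPM in HepG2 miR-17 TuD. In SK-Hep1 they summed to 84.7 to 105 CPM with the control and 74.3 to 79.7 CPM with the decoy, and TTR was at 0 throughout. Within that sum 4 of the 10 markers were called lower with the decoy and 1, FGB, higher. ALB had 59 and 113 counts in the controls and 0 and 4 with the decoy, AFP 62 and 76 against 11 and 7, AHSG 12 and 38 against 0 and 1, and APOA1 8 and 19 against 0 and 0. The part of these markers in the results was not tested. SK-Hep1 is often described as endothelial-like, and the 9 endothelial markers summed to 65.0 to 75.4 CPM in its libraries against 8.46 to 12.2 CPM in HepG2. ENG was the 1 marker higher in SK-Hep1 and had nearly all of these counts (915 to 1066 per library), while PECAM1, KDR and ERG were at 0 in all 4 SK-Hep1 libraries, KDR and ERG in HepG2 too.

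The largest contrast in these genes was between the lines themselves. In control-decoy cells, FOSL1, FOSL2, JUN, FOS, JUNB, EGR1 and IER2 were higher in SK-Hep1 than in HepG2, JUND was lower, and FOSB and IER3 were not called. These are 8 of 10 genes, against 86.7% of all genes tested (43.9% higher and 42.8% lower in SK-Hep1). The share called is near that of the whole transcriptome, so each value is read for their size and direction. The median difference over the 10 was 0.73 on the log2 scale, against 0.02 over all genes. Because these are bulk samples, fewer cells expressing a gene and less RNA per cell cannot be told apart in any of the differences described.

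FOSL1 encodes FRA1, a FOS protein without the transactivation domain of FOS that is often abundant in mesenchymal and invasive cells. The gene lies at chr11:65892049-65900573 on the minus strand (GRCh38). Its transcript was at 22.4, 19.8 and 23.1 CPM in the HepG2 NC TuD replicates 1 to 3, and at 577 and 594 CPM in SK-Hep1 NC TuD. The ranges are far apart, and the difference was 4.75 ± 0.05 (log2 ± SE, 26.9-fold, adjusted p = 1.30e-59, edgeR quasi-likelihood test). Among 12774 genes ranked by CPM per kilobase, FOSL1 stood at the 69.2 percentile in HepG2 and at the 99.5 percentile in SK-Hep1. FOSL2, which encodes FRA2 and lies at chr2:28392448-28417312, had 23.4, 22.9 and 23.1 CPM in HepG2 NC TuD and 159 and 165 CPM in SK-Hep1 NC TuD. This 6.998-fold difference (2.81 ± 0.06, adjusted p = 3.73e-45) had the same direction.

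FOS and FOSB were scarce in both lines. FOS (chr14:75278774-75282230), the founding member of the family, had 13, 9 and 19 counts in HepG2 NC TuD and 24 and 58 counts in SK-Hep1 NC TuD. The SK-Hep1 controls, at 1.69 and 3.81 CPM, were far from each other. The difference between lines was 1.43 ± 0.31 (adjusted p = 3.17e-05), and without SK-Hep1 NC TuD replicate 2 it was 0.72 with an adjusted p of 0.097, which did not pass. FOSB (chr19:45467995-45475179) had 7, 16 and 6 counts in HepG2 NC TuD and 11 in each SK-Hep1 NC TuD library. Its difference was 0.04 ± 0.45, which did not pass the test, and its sign turned without HepG2 NC TuD replicate 1 or 3 or SK-Hep1 NC TuD replicate 1. ERCC1 overlaps FOSB on the other strand, and the kit does not mark strand. ERCC1 had 315, 298 and 343 counts in HepG2 NC TuD and 1479 and 1639 in SK-Hep1 NC TuD. The part of reads from the overlap in the FOSB counts was not tested.

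JUN and JUND took opposite directions between the lines. JUN, the classical partner of FOS, is a gene of 1 exon at chr1:58780788-58784327 on the minus strand. It was at 70.2, 66.9 and 73.8 CPM in HepG2 NC TuD and at 220 and 230 CPM in SK-Hep1 NC TuD, a 3.20-fold difference (1.68 ± 0.05, adjusted p = 2.01e-37). JUND, at chr19:18279760-18281622 and known as the JUN protein of resting cells, was at 108, 89.6 and 105 CPM in HepG2 NC TuD against 25.8 and 22.8 CPM in SK-Hep1 NC TuD. Every HepG2 library was above every SK-Hep1 library, and JUND was 4.17-fold lower in SK-Hep1 (-2.06 ± 0.09, adjusted p = 3.33e-21). JUNB, at chr19:12791496-12793315 and often an antagonist of JUN in growth control, had 9.04, 10.0 and 10.1 CPM in HepG2 NC TuD and 19.1 and 17 CPM in SK-Hep1 NC TuD. It was 1.85-fold higher in SK-Hep1 (0.89 ± 0.11, adjusted p = 2.19e-10).

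The immediate early genes outside AP-1 were EGR1, IER2 and IER3. EGR1, a zinc finger factor induced through serum response factor (SRF) at chr5:138465490-138469315, had 9.04, 9.22 and 10.9 CPM in HepG2 NC TuD and 13.8 and 15.0 CPM in SK-Hep1 NC TuD. IER2 (chr19:13150415-13154908), whose product is a nuclear protein with links to transcription, had 41.5, 39.98 and 42.9 CPM against 59.2 and 56.8 CPM. Both were higher in SK-Hep1 without overlap, EGR1 by 0.57 ± 0.12 (adjusted p = 1.87e-05) and IER2 by 0.48 ± 0.07 (adjusted p = 3.14e-09). IER3 (chr6:30743199-30744554, minus strand), a stress-induced gene that modulates cell survival, had 186, 176 and 188 CPM in HepG2 NC TuD and 180 and 186 CPM in SK-Hep1 NC TuD. The ranges overlap, and the difference of -0.002 ± 0.05 (adjusted p = 0.963) had an interval of -0.10 to 0.09.

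**Figure D1:**
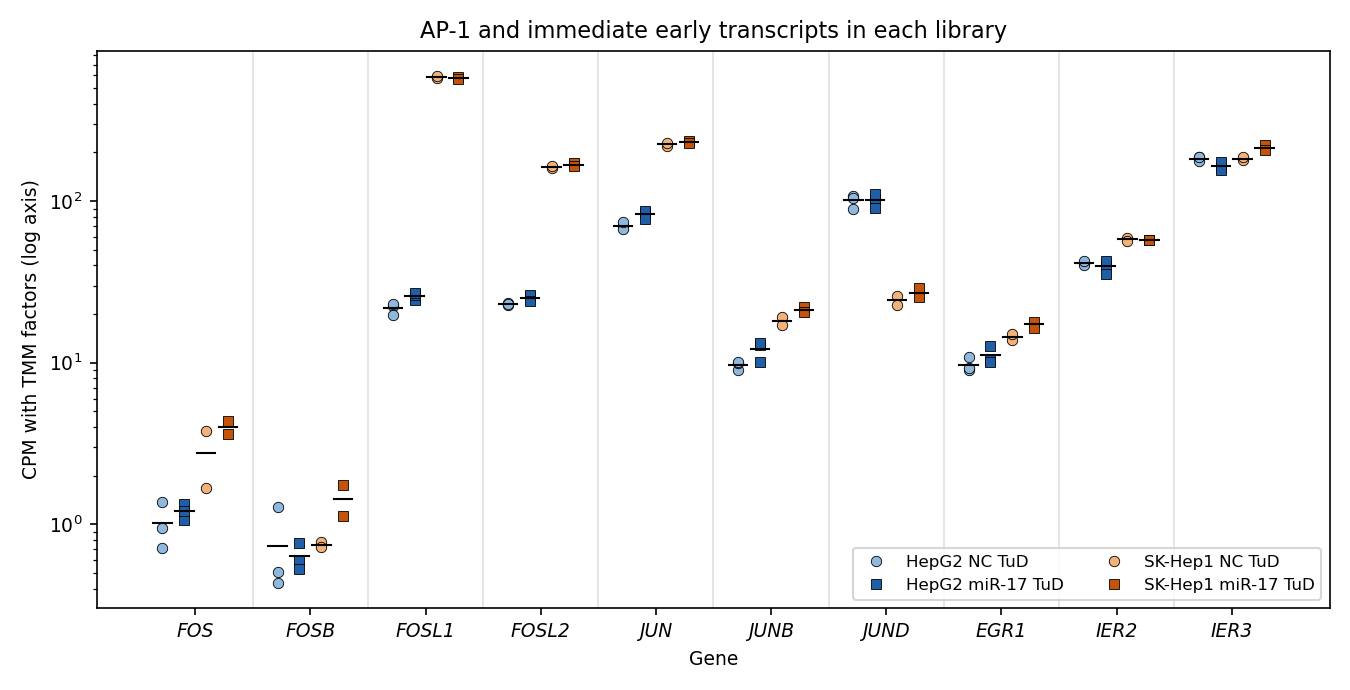
Each point is 1 library (circles NC TuD, squares miR-17 TuD; blue HepG2, orange SK-Hep1), the y axis is TMM-scaled CPM on a log axis, and the short bar is the group mean. FOSL1 shows the widest gap between lines, from 22.4 CPM in a HepG2 control to 577 CPM in an SK-Hep1 control, JUND runs the other way, and the IER3 controls of both lines sit between 176 and 188 CPM.

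Expressed per kilobase of exon, the FOS family differed between lines mainly in amount and the JUN family mainly in composition. No test was run on these sums and shares. The summed FOS family level was 15.2 ± 0.95 CPM per kilobase in HepG2 NC TuD (SD, n = 3) and 334 ± 7.17 in SK-Hep1 NC TuD (n = 2), a ratio of 21.96. FOSL1 made up most of that sum in both lines, 75.8 ± 1.36% in HepG2 and 92.9 ± 0.14% in SK-Hep1. FOSL2 was 21.3% and 6.77% of the sum although its own level was higher in SK-Hep1, and FOS itself was 2.04% and 0.253%. The summed JUN family was 79.4 ± 5.96 in HepG2 NC TuD and 86.6 ± 0.04 in SK-Hep1 NC TuD, a ratio of 1.09. Within it, JUND was 68.2 ± 1.87% in HepG2 and 15.1 ± 1.31% in SK-Hep1, while JUN was 25.1 ± 1.08% and 73.5 ± 2.24%. FOS family transcripts were 0.187 to 0.195 times the JUN family in the HepG2 controls and 3.80 to 3.92 times in the SK-Hep1 controls. These shares concern RNA, and protein was not measured.

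**Figure D2:**
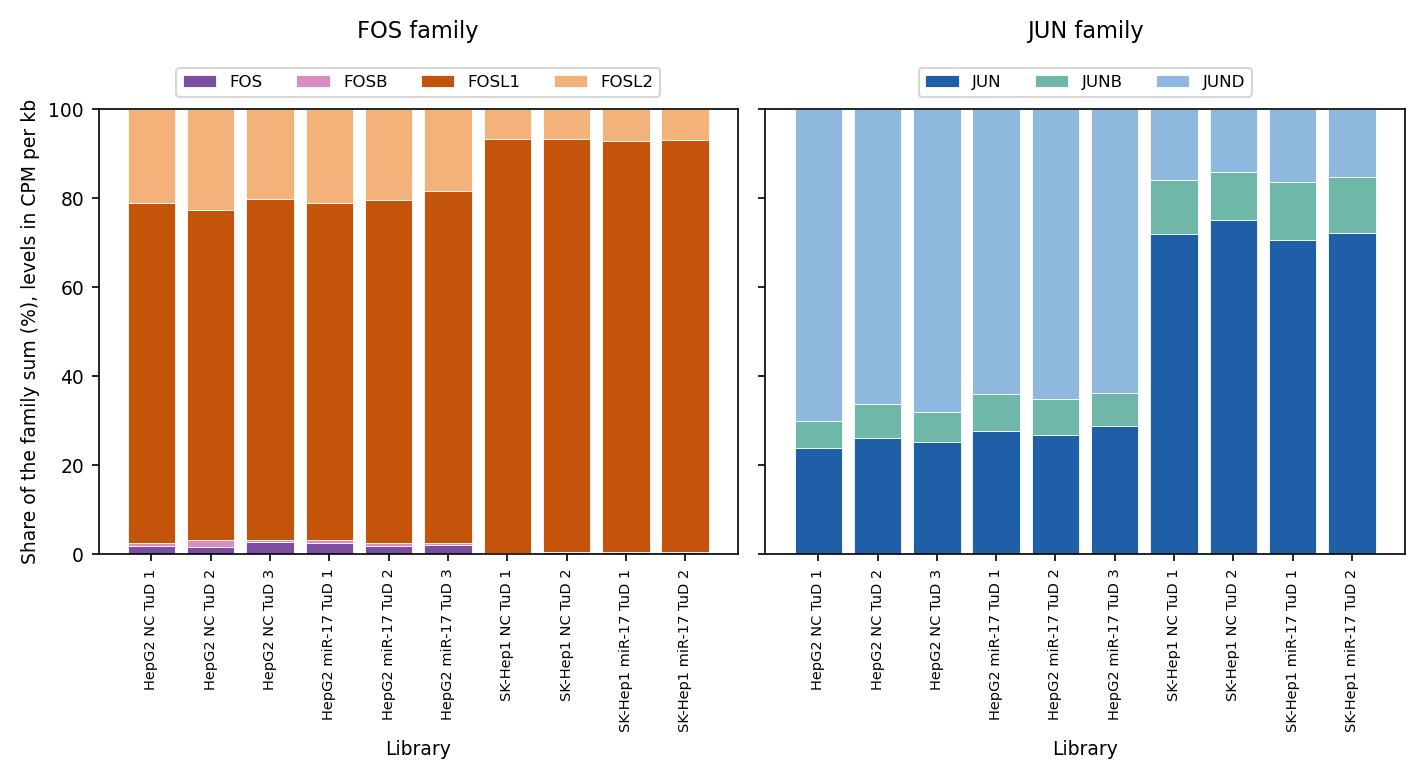
Stacked bars give, for each library on the x axis, the share of each gene in the summed FOS family (left) or JUN family (right), in percent of CPM per kilobase. FOSL1 holds most of the FOS family in every library. JUND and JUN are 68.2% and 25.1% in the HepG2 controls and 15.1% and 73.5% in the SK-Hep1 controls.

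The genes also took a different order of level in each line, on the scale of CPM per kilobase. In HepG2 NC TuD it was IER3 (135), JUND (54.2), JUN (19.9), IER2 (13.5), FOSL1 (11.5), JUNB (5.34), FOSL2 (3.23), EGR1 (3.10), FOS (0.314) and FOSB (0.133). FOSL2 and EGR1 overlapped, as did FOS and FOSB, and no other neighbours did. In SK-Hep1 NC TuD it was FOSL1 (310), IER3 (135), JUN (63.6), FOSL2 (22.6), IER2 (18.9), JUND (13.0), JUNB (9.92), EGR1 (4.59), FOS (0.848) and FOSB (0.135), with no overlap between neighbours. With the miR-17 decoy FOSL1 and IER2 exchanged places in HepG2 (13.7 and 12.8), as did EGR1 and FOSL2 (3.54 and 3.53), both pairs with overlapping ranges, and the order in SK-Hep1 was unchanged.

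In HepG2, the miR-17 decoy went with higher JUN, FOSL1 and JUNB and with lower IER3. These 4 of 10 genes compare with 19.3% of all genes tested. The 3 that rose compare with 10.7% called higher, and the 1 that fell with 8.58% called lower. The median difference over the 10 was 0.16 on the log2 scale, against 0.00 over all genes. In 5 of 10 genes the libraries of the arms did not overlap, FOSL1, FOSL2, JUN and JUNB above the control and IER3 below it. Of all genes tested 31.0% had arms without overlap, 16.1% above the control and 14.9% below it.

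JUN was at 84.5, 86.3 and 77.4 CPM in HepG2 miR-17 TuD replicates 1 to 3, all above the highest control library at 73.8 CPM. The rise was 0.24 ± 0.05 (1.18-fold, adjusted p = 3.57e-04, edgeR), and it was called in all 16 alternatives, with values from 0.20 to 0.28. FOSL1 was at 24.4, 26.1 and 27.1 CPM, again all above the controls. Its rise of 0.24 ± 0.07 (1.18-fold, adjusted p = 0.00841) was not called without HepG2 NC TuD replicate 2, the lowest control (0.18, adjusted p = 0.0959), or without both libraries that stood apart (0.15, adjusted p = 0.212). JUNB was at 12.9, 13.2 and 10.2 CPM, and the lowest of these lay only just above the highest control at 10.1 CPM. Its rise of 0.32 ± 0.11 (adjusted p = 0.0308) was lost in 7 of 16 alternatives. These include DESeq2 (adjusted p = 0.0915) and each fit without miR-17 TuD replicate 1 (0.28, adjusted p = 0.148), miR-17 TuD replicate 2 (0.25, adjusted p = 0.176) or NC TuD replicate 1 (0.27, adjusted p = 0.155). Without both libraries that stood apart it was 0.45 (adjusted p = 0.00601). HOOK2 overlaps JUNB on the other strand, and the kit does not mark strand, so reads in the overlap cannot be told apart. They may have been left out with the entries classed as ambiguous (0.584% to 0.619% of each library), and how they were assigned is uncertain. HOOK2 was 0.26 ± 0.10 higher in the same libraries (adjusted p = 0.0590).

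IER3 moved the other way in HepG2. Its 162, 175 and 156 CPM with the miR-17 decoy were all below the lowest control library at 176 CPM. The fall was -0.16 ± 0.04 (0.898-fold, adjusted p = 0.00652), and it was called in all 16 alternatives, from -0.20 to -0.12. IER3 shares its locus with the antisense transcript IER3-AS1, whose reads cannot be separated from it in this kit.

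The other 6 genes were not called in HepG2. FOSL2, at 25.8, 26.1 and 24.0 CPM, lay above its controls without overlap, with a difference of 0.13 ± 0.07 (adjusted p = 0.220). EGR1 was at 10.4, 12.7 and 10.2 CPM, a difference of 0.19 ± 0.11 (95% interval -0.03 to 0.41, adjusted p = 0.256). JUND was at 103, 110 and 90.6 CPM and IER2 at 40.5, 42.3 and 35.6 CPM, both overlapping their controls. Their intervals were -0.12 to 0.13 for JUND and -0.19 to 0.06 for IER2. FOS (19, 16 and 16 counts) and FOSB (11, 9 and 7 counts) were sparse, and their intervals were wide, -0.45 to 0.91 and -1.02 to 0.65.

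In SK-Hep1, IER3 was the 1 gene of 10 that was called, and it was higher with the miR-17 decoy. In this line 0.869% of all genes tested were called, 0.667% higher and 0.202% lower. IER3 was at 222 and 206 CPM with the decoy against 180 and 186 CPM with the control, and the arms did not overlap. The rise was 0.23 ± 0.05 (1.17-fold, adjusted p = 0.0102). It was lost in 5 of 14 alternatives. Of those, 3 each lack a library: SK-Hep1 NC TuD replicate 1 (0.20, adjusted p = 0.266), NC TuD replicate 2 (0.25, adjusted p = 0.0715) and miR-17 TuD replicate 1 (0.17, adjusted p = 0.527). It also did not pass in limma on the deposited log2 values (0.23, adjusted p = 0.1203).

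The arms of SK-Hep1 did not overlap in FOSB, JUN, JUNB, EGR1 and IER3, 5 of 10, all with the decoy above. Of all genes tested 40.4% had arms without overlap, 18.4% with the decoy above and 21.9% with it below. The median over the 10 genes was 0.19 on the log2 scale, against -0.01 over all genes. At an unadjusted p below 0.05, 5 of the 10 were higher and 0 lower by edgeR, FOS, FOSB, JUNB, EGR1 and IER3. Over all genes tested 4.08% were higher and 4.28% lower at that level. DESeq2 had 1 of the 10 higher and 0 lower there, against 2.96% of all genes higher with that tool. Limma on the deposited log2 values had 1 higher (4.15% of all genes), limma voom 5 (4.42%) and a replicate block 4 (3.09%). Each of these had 0 lower, and the count depends on the tool. FOSB had 15 and 25 counts against 11 and 11, a difference of 0.94 ± 0.42 (adjusted p = 0.507). FOS had 58 and 52 counts against 24 and 58, a difference of 0.52 ± 0.25 (adjusted p = 0.584), and its arms overlapped through the second control. JUNB was at 22.1 and 20.6 CPM against 19.1 and 17 CPM (0.24 ± 0.11, adjusted p = 0.507). EGR1 was at 18.0 and 16.5 CPM against 13.8 and 15.0 CPM (0.26 ± 0.12, adjusted p = 0.517).

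For the abundant members of SK-Hep1 the intervals were narrow. FOSL1 was at 586 and 567 CPM with the decoy, overlapping the control, and its interval was -0.11 to 0.06 on the log2 scale. JUN was at 235 and 230 CPM (-0.05 to 0.14), and FOSL2 at 173 and 164 CPM (-0.05 to 0.16). JUND was at 28.8 and 25.5 CPM (-0.06 to 0.38), and IER2 at 57.4 and 57.1 CPM (-0.16 to 0.12). None of these 5 differences passed the test.

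**Figure D3:**
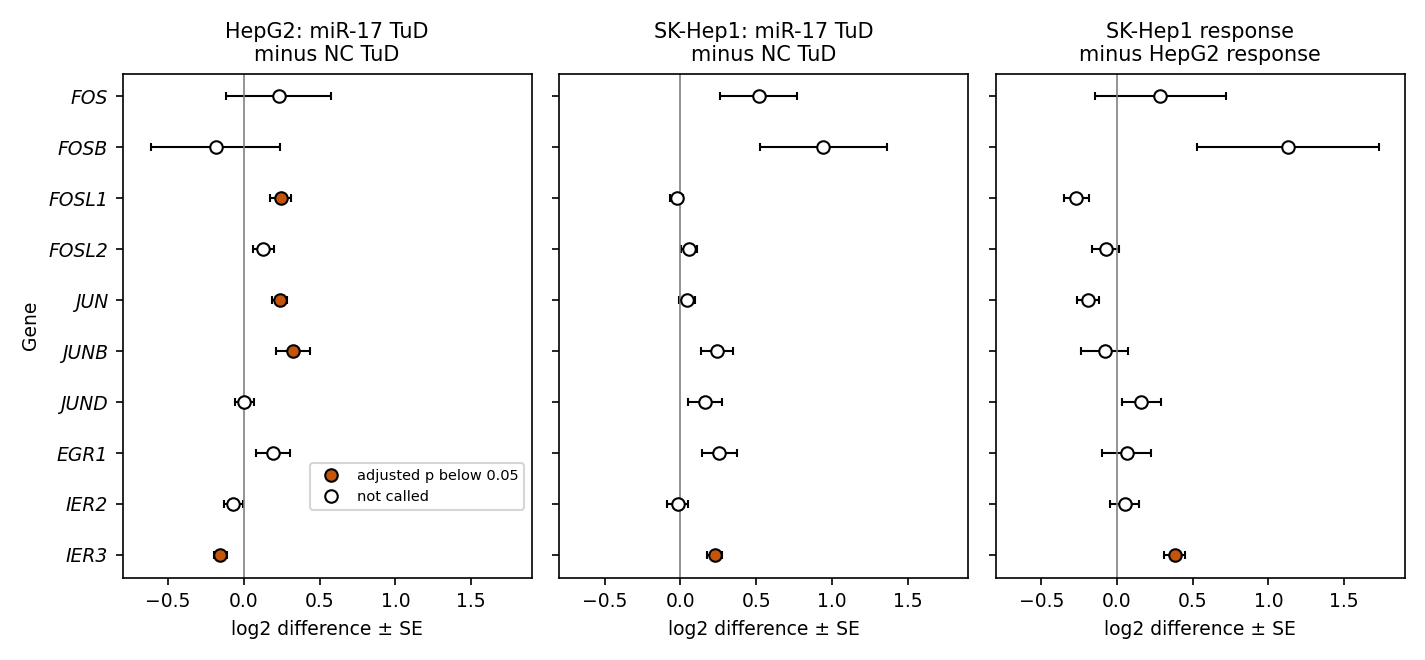
Points give the log2 difference of miR-17 TuD minus NC TuD in HepG2 (left) and SK-Hep1 (middle) and the difference between those responses (right), with SE bars, for each gene on the y axis; filled points have an adjusted p below 0.05. IER3 is the gene filled in all 3 panels, at -0.16, 0.23 and 0.38, and the bars of FOS and FOSB are the widest.

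The responses of the lines differed for IER3. Its response in SK-Hep1 exceeded that in HepG2 by 0.38 ± 0.07 on the log2 scale (interaction test, adjusted p = 1.12e-04), and the call was kept in all 19 alternatives (0.33 to 0.43, adjusted p at most 0.0183). This is 1 of 10 genes, against 3.75% of all genes tested (1.24% higher and 2.51% lower). FOSL1 was close to the threshold at -0.27 ± 0.08 (adjusted p = 0.0533), and JUN was at -0.19 ± 0.07 (adjusted p = 0.142), so a difference between the lines was not shown for either. The remaining 7 had adjusted p of 0.371 or more. IER3 was level between the controls, so its opposite responses left it at 165 ± 9.57 CPM in HepG2 and 214 ± 11.7 CPM in SK-Hep1 with the miR-17 decoy.

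Other genes followed these patterns across the 10 libraries once the mean of each line was taken off. For JUN the closest reported here were THEM6 (Pearson r = 0.986) and ZYX (0.981), and for IER3 they were SRC (0.974), CEBPB (0.944) and ARHGEF16 (0.941). ZYX encodes the focal adhesion protein zyxin, SRC a tyrosine kinase and CEBPB a bZIP transcription factor. These values share libraries and scaling with the members, include the difference between decoys, and were among the highest of 13349 genes, so they are given as a description.

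Other immediate early genes were mostly lower where they were called in HepG2. Of 36 listed, 29 were tested. In HepG2 1 was higher and 6 were lower by edgeR, where 10.7% and 8.58% of all genes were called, and DESeq2 had 0 higher and 4 lower (2 and 6 at an unadjusted p below 0.05). In SK-Hep1 2 were higher and 0 lower by edgeR, where 0.667% and 0.202% of all genes were called. At an unadjusted p below 0.05, 7 were higher and 0 lower in that line, against 4.08% and 4.28% of all genes. There DESeq2 had 1 higher, and limma on the deposited log2 values 0 higher, with 6 at an unadjusted p below 0.05. In HepG2 DUSP6, a phosphatase that switches off ERK, fell by 0.54 ± 0.05 (adjusted p = 1.39e-12), and the kinase gene SGK1 fell by 0.47 ± 0.07 (adjusted p = 2.22e-07). CTGF fell by 0.22 ± 0.04 (adjusted p = 7.89e-06) and MYC by 0.14 ± 0.04 (adjusted p = 0.00743). In SK-Hep1 TNFAIP3, an inhibitor of NF-kappaB signalling, rose by 0.25 ± 0.06 (adjusted p = 0.0381), and DUSP1, which inactivates stress kinases, rose by 0.37 ± 0.10 (adjusted p = 0.0465). In SK-Hep1 DESeq2 called 1 of the 29, and limma on the deposited log2 values called 0, with 6 at an unadjusted p below 0.05. Over all genes, DESeq2 called 1087 higher and 719 lower of 13349 in HepG2, and 68 and 20 in SK-Hep1. At an unadjusted p below 0.05 it had 1795 and 1374 in HepG2, and 395 and 268 in SK-Hep1. Limma on the deposited log2 values called 898 higher and 821 lower of 13658 in HepG2, and 60 and 76 in SK-Hep1. At an unadjusted p below 0.05 it had 1831 and 1804, and 567 and 673. These counts also apply to the lists below. The median of the immediate early list was -0.004 in HepG2 and 0.07 in SK-Hep1. The response differed between lines in 4 of the 29, against 3.75% of all genes tested (1.24% higher and 2.51% lower). The 4, named after their values were seen, were DUSP6 (0.68 ± 0.08), SGK1 (0.62 ± 0.09), TNFAIP3 (0.39 ± 0.08) and CTGF (0.35 ± 0.06). All 4 were higher in SK-Hep1 relative to HepG2, as IER3 was, with adjusted p of 4.92e-09, 1.33e-06, 0.00147 and 1.61e-04.

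Among other AP-1 and bZIP partners, which can pair with FOS or JUN proteins, 14 of 16 were tested. In HepG2 2 were higher and 2 lower by edgeR, against 10.7% and 8.58% of all genes. DESeq2 had 2 higher and 1 lower there, and limma on the deposited log2 values 1 higher and 2 lower. In SK-Hep1 edgeR, DESeq2 and limma called 0, with 1 higher at an unadjusted p below 0.05, against 4.08% of all genes by edgeR. CREB5 rose by 0.80 ± 0.17 (adjusted p = 3.78e-04) and ATF7 by 0.21 ± 0.06 (adjusted p = 0.0171), while ATF4, the amino acid stress factor, fell by 0.18 ± 0.04 (adjusted p = 8.07e-05) and MAFG by 0.13 ± 0.05 (adjusted p = 0.0418).

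Upstream of the members, 10 of 10 listed SRF, ternary complex and EGR cofactors were tested. In HepG2 2 were higher and 0 lower, against 10.7% and 8.58% of all genes. At an unadjusted p below 0.05, edgeR and DESeq2 each had 6 higher and 0 lower in HepG2. At that level 16% of all genes were higher by edgeR and 13.4% by DESeq2. There MKL1, a coactivator of SRF, rose by 0.48 ± 0.07 (adjusted p = 8.80e-07), and its relative MKL2 rose by 0.19 ± 0.06 (adjusted p = 0.0116). In SK-Hep1 edgeR, DESeq2 and limma called 0. At an unadjusted p below 0.05, 3 were lower by edgeR, against 4.28% of all genes, and 1 by DESeq2. The response was lower in SK-Hep1 than in HepG2 for 4 of 10 by edgeR, where 2.51% of all genes were called lower. It was called lower for 3 with limma voom, 1 with limma on the deposited log2 values and 1 with DESeq2. Over all genes those fits called 272, 251 and 217 lower, in that order. The 4 called by edgeR are named after their values were seen. They were MKL2 (-0.54 ± 0.13, adjusted p = 0.00816), MKL1 (-0.44 ± 0.12, adjusted p = 0.0176), ELK4 (-0.29 ± 0.08, adjusted p = 0.0425) and CREBBP (-0.28 ± 0.08, adjusted p = 0.0471). Of the MAP kinases that act on AP-1, 26 of 28 were tested. In HepG2 3 were higher and 1 lower by edgeR, against 10.7% and 8.58% of all genes. DESeq2 had 2 higher and 1 lower there, and limma on the deposited log2 values 1 higher and 1 lower. In SK-Hep1 edgeR called 0, also at an unadjusted p below 0.05, and DESeq2 and limma called 0. The kinase genes RPS6KA4 (0.30 ± 0.06), MAP3K2 (0.22 ± 0.06) and MAP3K11 (0.17 ± 0.05) rose, and RPS6KA3, which encodes RSK2, fell by 0.25 ± 0.04, with adjusted p of 2.00e-04, 0.00433, 0.0185 and 1.89e-07. Of 8 genes for turnover of AP-1 proteins, 0 were higher and 2 lower in HepG2 by edgeR, against 10.7% and 8.58% of all genes. Those lower were TRIB2 (-0.82 ± 0.28, adjusted p = 0.0285) and CUL4A (-0.12 ± 0.04, adjusted p = 0.0399). DESeq2 called 0 of the 8 in HepG2, with 2 lower at an unadjusted p below 0.05. In SK-Hep1 edgeR, DESeq2 and limma called 0 of the 8, also at an unadjusted p below 0.05.

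Among genes reported elsewhere as targets of AP-1 or EGR1, IL8 rose in both lines. Of 30 listed, 26 were tested. The list was chosen with earlier results of these data known, so its counts and medians beside those of all genes are a description only. In HepG2 9 were higher and 2 lower by edgeR, against 10.7% and 8.58% of all genes. DESeq2 had 9 higher and 0 lower there (3 lower at an unadjusted p below 0.05), and limma on the deposited log2 values 6 higher and 0 lower (1 lower at that level). Over all genes DESeq2 called 1087 higher and 719 lower in HepG2, and limma on the deposited log2 values 898 and 821. In SK-Hep1 5 were higher and 0 lower by edgeR, against 0.667% and 0.202% of all genes, and 11 were higher and 1 lower at an unadjusted p below 0.05, against 4.08% and 4.28%. DESeq2 had 6 higher and 0 lower in SK-Hep1, where it called 68 and 20 of all genes. Limma on the deposited log2 values had 3 higher and 1 lower, where it called 60 and 76 of all genes. The list median was 0.09 in HepG2 and 0.13 in SK-Hep1, against 0.00 and -0.01 over all genes. IL8, a neutrophil chemokine, rose by 1.52 ± 0.20 in HepG2 (adjusted p = 3.08e-08) and by 0.67 ± 0.06 in SK-Hep1 (adjusted p = 9.74e-13). In HepG2 the matrix protein gene SPP1 rose by 0.45 ± 0.03 (adjusted p = 7.72e-17) and the cyclin gene CCND1 by 0.25 ± 0.03 (adjusted p = 4.11e-08). In SK-Hep1 the haem-degrading enzyme gene HMOX1 rose by 0.36 ± 0.06 (adjusted p = 2.17e-05) and the cytokine gene IL6 by 0.43 ± 0.09 (adjusted p = 0.00563). IL6 had 0 counts in all 6 HepG2 libraries. Many of these genes also answer to factors outside AP-1, and which factor acted on them was not tested.

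**Figure D4:**
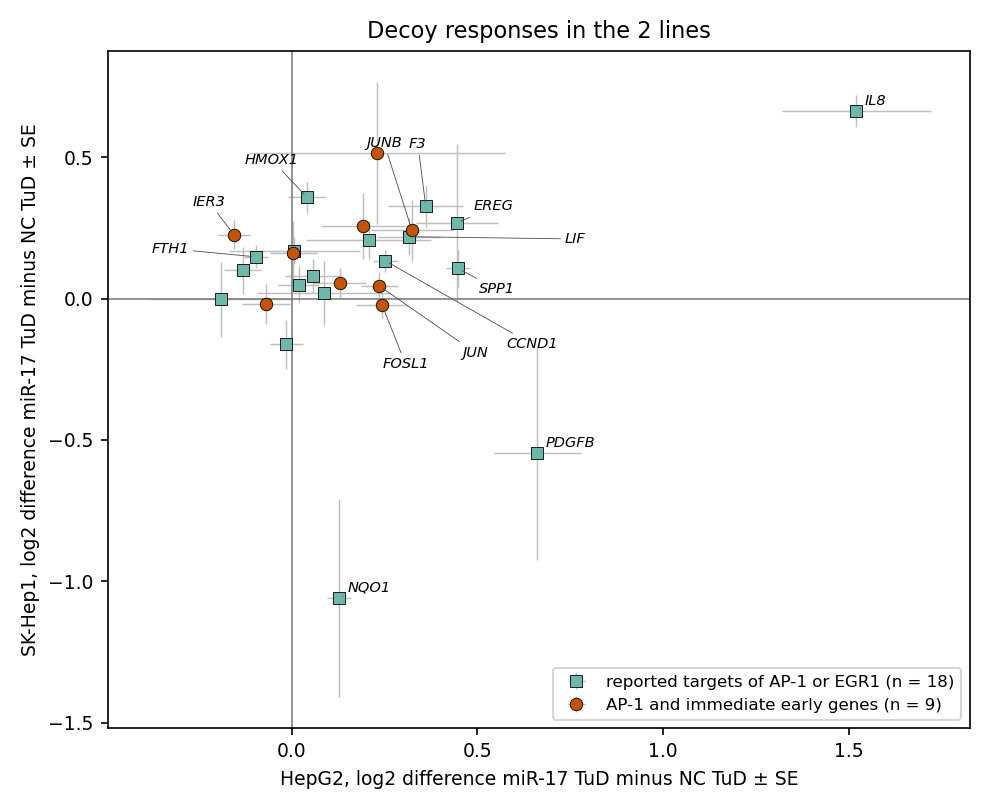
Each point is 1 gene with its log2 difference of miR-17 TuD minus NC TuD in HepG2 (x axis) and SK-Hep1 (y axis), with SE bars; circles are 9 of the 10 AP-1 and immediate early genes and squares are 18 reported targets, drawn from those with a mean of at least 1 CPM in an arm of each line. Gene names mark those called in either line; IL8 is farthest out at 1.52 and 0.67, and IER3 lies left of 0 on the x axis and above 0 on the y axis.

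Sequence features other than miR-17 sites also varied among the members. ATTTA, the core of the AU-rich elements that speed decay of many immediate early transcripts, occurred 6 times in the 3′ UTR of IER3 (8.14 per kilobase) and 5 times in that of FOS (6.20 per kilobase). The median over tested genes was 1.58 and the 90th percentile 4.84 per kilobase. Of the others, JUNB had 2 (4 per kilobase), JUN 3 (2.33 per kilobase), FOSL2 9 (1.85 per kilobase) and IER2 0. At least 4 copies were found in 3 of 10 members, against 34.6% of genes with a 3′ UTR. IER3 was called in both decoy comparisons and FOS, with 9 to 58 counts per library, in neither. A link between ATTTA and the response to the decoy was not tested.

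Promoter windows of 300 bases, from 250 before to 50 after the start, were in the RefSeq table (GRCh38.p14) for 8 of the 10 genes. They were searched on both strands for the CArG box bound by SRF, the cyclic AMP element TGACGTCA and the AP-1 element TGACTCA. The 4 matches are shown because they are the ones found in these windows. Capitals mark the motif, given with the position of its first base from the start.
EGR1, CArG at -105, chr5:138465364-138465393, plus strand: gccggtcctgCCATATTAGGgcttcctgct
EGR1, CArG at -83, chr5:138465386-138465415, plus strand: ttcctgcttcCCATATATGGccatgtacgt
JUND, TGACGTCA at -200, chr19:18281804-18281833, minus strand: ggccgcccccaTGACGTCAacccacaaggc
FOSL2, TGACTCA at 4, chr2:28392851-28392880, plus strand: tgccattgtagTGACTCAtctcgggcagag
EGR1 was the member with CArG boxes, which occur in 1.29% of the 27305 windows of this length in the table. The cyclic AMP element occurs in 1.98% and the AP-1 element in 4.92% of them. Among the 10142 windows of tested genes the CArG box occurs in 1.02%, the cyclic AMP element in 3.13% and the AP-1 element in 3.10%. A match is no evidence of binding, and no chromatin data were used here.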

How the data were processed

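Total RNA of 10 libraries was prepared with the TruSeq RNA v2 kit, which does not mark strand, per the labels' protocols. Gene counts per library were made by the authors. The submitters' processing notes name FastQC, STAR, SAMtools, HTSeq 0.5.4p5, limma and hg19, whereas the series text names other tools and another genome, so the exact path is uncertain. The authors also deposited a log2 matrix of 13658 genes, used only as an alternative. Between 11.6% and 14.1% of each library's entries were in no feature; such classes were left out.

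Counts were tested with edgeR 4.0.16 (R 4.3.3): filterByExpr (minimum count 10), TMM, 4 group means over all 10 libraries, robust quasi-likelihood F test, two-sided, Benjamini-Hochberg over 13349 genes, calls at an adjusted p below 0.05. SE is the log2 difference over the root of F, and 95% intervals use 1.96 SE. Alternatives were other scalings, no filter, DESeq2 1.42.0, limma 3.58.1 with voom or on the log2 matrix, only the groups compared, a replicate block, and each library left out. The fit was also run on counts simulated from its own means and spread, and no result given here rests on that run. The members and lists were chosen with earlier results of these data known. All members are named; from every other list, up to 4 called genes with the smallest adjusted p per decoy comparison are named, and for 2 members the 3 genes with the highest correlation. Genes that fit this rule but are not reported here were left out of the text and figures. Lengths and transcripts came from GENCODE 29 on GRCh38, a build other than that of the counts. Intervals cover these libraries only.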

Additional observations from a re-analysis of the deposited data

Results flagged for a closer look

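The response of IER3 to the miR-17 decoy differed between the lines by a test of the difference itself. It fell by 0.16 ± 0.04 on the log2 scale in HepG2 (3 libraries per arm), where all 3 decoy libraries were below all 3 controls. The highest decoy library, at 175 CPM, lay only just below the lowest control at 176 CPM. IER3 rose by 0.23 ± 0.05 in SK-Hep1, where both decoy libraries were above both controls. Of all genes tested, 14.9% had every decoy library below the controls in HepG2, and 18.4% had every one above them in SK-Hep1. The rise in SK-Hep1 was lost in 5 of 14 alternatives, among them 3 of the 4 fits that leave out 1 of its libraries (adjusted p = 0.0715 to 0.527), and the fall in HepG2 was kept in all 16. The difference between the responses was 0.38 ± 0.07 (edgeR interaction test, adjusted p = 1.12e-04). The HepG2 libraries that stood apart were also the lowest of their arms in IER3, and without both of them the fall in HepG2 was -0.15 (adjusted p = 0.0115).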

How the results depend on the processing

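Of the calls on single members, JUN and IER3 in HepG2, the response difference of IER3 and every line difference but that of FOS were kept in all alternatives run. Members called for the response difference numbered 2 without a scaling factor or without a filter, FOSL1 being the addition (-0.30 and -0.27), and 1 to 2 when single libraries were left out. Members called in SK-Hep1 were 0 with limma on the deposited log2 values (1 at an unadjusted p below 0.05) and 0 to 1 when single libraries were left out. Genes called in SK-Hep1 were 116, against 292 with only the groups compared, 50 to 65 with single libraries left out, and 241 without both HepG2 libraries that stood apart, a setting chosen after seeing the data. Genes called for the response difference were 500, and 260 to 618 with single libraries left out.

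The replicate block gave 58 genes and 0 members in SK-Hep1 (4 at an unadjusted p below 0.05), 227 genes for the response difference, and line differences of -0.088 for FOSB and 0.012 for IER3. Under it JUNB in HepG2 had an adjusted p of 0.0608 and IER3 in SK-Hep1 of 0.151. In HepG2 it called 0 higher and 4 lower of the other immediate early genes, 0 of the reported targets lower (3 at an unadjusted p below 0.05) and 1 of the turnover genes, and it called 1 of the SRF list for the response difference. Same-numbered libraries did not deviate together (r = 0.06, -0.24 and -0.25 in HepG2, -0.07 in SK-Hep1). In HepG2 the highest values joined NC TuD replicate 2 with miR-17 TuD replicate 3 (0.29) and NC TuD replicate 3 with miR-17 TuD replicate 2 (0.24). Deviations were taken from means of 2 or 3 libraries, so these values constrain each other. They cannot settle whether libraries of the 2 arms are paired.

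Signs that turned belong to differences near 0 or to sparse genes. The line difference of IER3 was 0.065 with upper quartile scaling, 0.054 without a scaling factor and 0.0034 with only the groups compared. Without both HepG2 libraries, FOSB in HepG2 was 0.52 and JUND -0.0015. Leaving out single libraries gave ranges of -0.46 to 0.42 for FOSB and -0.075 to 0.075 for JUND in HepG2, -0.050 to 0.013 for IER2 in SK-Hep1, and -0.23 to 0.65 for FOSB and -0.031 to 0.022 for IER3 between lines. For the response difference the ranges were -0.17 to 1.00 for FOS, -0.029 to 0.18 for EGR1, -0.015 to 0.10 for IER2 and -0.19 to 0.0043 for JUNB. The cause was not tested. FOS and FOSB had 6 to 58 counts per library.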
